A study of Homo sapiens with 4 samples.

Results

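The expression of 10 genes of cystine uptake, glutathione metabolism and ferroptosis defence was described in neuroblastoma cells with and without knockdown of NEUROD1. The genes were SLC7A11, SLC3A2, CHAC1, GCLC, GCLM, GSS, GSR, GPX4, TXNRD1 and ACSL4. They were taken by symbol from the 60612 gene identifiers of the deposited count table. Because they were chosen with their values in this contrast already known, those values are given here as a description, with no test. All 10 passed the filter on low counts.

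RNA was sequenced from IMR-32, a MYCN-amplified line established from human neuroblastoma. Every culture carried a doxycycline-inducible short hairpin RNA and received doxycycline at 1 µg/mL for 48 h. The shControl group (n = 2 libraries) expressed a control hairpin, and the shNeuroD1 group (n = 2 libraries) expressed a hairpin against NEUROD1, which encodes a basic helix-loop-helix transcription factor of neural development. The sample names in the study's own supplement give both knockdown libraries the same hairpin, so that an effect of that hairpin apart from NEUROD1 cannot be told apart from the knockdown, and no library without doxycycline was used here. Whether a group's libraries came from separate cultures is not in the labels, and the p-values below then measure only the spread between these libraries, which may be technical.

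Cells take up cystine, the oxidised dimer of cysteine, in exchange for glutamate through system xc-, whose light chain is SLC7A11 and whose heavy chain is SLC3A2. Cystine is reduced to cysteine, and glutamate-cysteine ligase (the catalytic subunit GCLC with the modifier subunit GCLM) and then glutathione synthetase (GSS) build glutathione from it. GPX4 uses glutathione to reduce lipid hydroperoxides in membranes, and when this defence fails in the presence of iron and polyunsaturated phospholipids, cells die by ferroptosis. MYCN-amplified neuroblastoma cells are known for their dependence on cystine supply.

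NEUROD1 itself was measured first, as a check of the labels. It stood at 418.9 and 414.5 CPM (read counts scaled to the size of the library) in shControl and only 63.7 and 58.2 CPM in shNeuroD1, that is at 14.6% of the control mean (log2 fold change -2.77, SE 0.05, adjusted p = 8.6e-29 in edgeR's quasi-likelihood test). The libraries held between 14665210 and 16482463 counts. The share of counts on mitochondrial genes was 4.37% and 4.59% with the control hairpin but 5.39% and 5.51% with the NEUROD1 hairpin, so it moved with the group, and its part in the differences below was not tested. Of 9 sympathoadrenal neuroblast markers, all 9 were above 1 CPM on average, with summed levels of 4070 to 4170 CPM in shControl and 3800 to 3830 CPM in shNeuroD1. None of 5 leukocyte markers reached that level, and CD3E was at 0 in every library. Fibroblast markers reached it for 3 of 6 genes, with COL1A2, COL3A1 and DCN below it, and summed to 44.6 to 49.4 CPM in shControl and 36.2 to 38.9 CPM in shNeuroD1. Schwann cell markers reached it for 3 of 5 genes, with SOX10 and ERBB3 below it, and summed to 5.42 to 5.43 CPM in shControl and 8.74 to 10.1 CPM in shNeuroD1. The part of either list in the results was not tested. In such bulk libraries, fewer cells with a transcript and less of it per cell cannot be told apart.

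The largest differences among the 10 genes lay at cystine uptake and at glutathione breakdown, while the enzymes that build glutathione differed little. SLC7A11 stood at 8.20% of its control mean after NEUROD1 knockdown, CHAC1 at 13.2%, and SLC3A2 at 50.5%. TXNRD1 followed at 66.9%, GSR at 78.9%, GPX4 at 79.4%, GCLM at 85.0%, ACSL4 at 85.2% and GCLC at 88.7%, and GSS stood at 105%. Lower levels with an adjusted p under 0.05 were found for 9 of the 10 genes, beside 28.2% of the 17537 genes tested, and higher levels for 0, beside 26.8%. Lower levels that also passed a log2 fold change of 1 were found for 2, SLC7A11 and CHAC1, beside 5.14%. The libraries of the groups did not overlap, with shNeuroD1 lower, for 9 of the 10 genes, beside 37.7% of all genes tested, and with shNeuroD1 higher for 0, beside 38.4%. Since the genes were chosen on this contrast, nothing is read from these counts. Of all genes tested, 34 others had a more negative log2 fold change than SLC7A11, and 69 others a more negative one than CHAC1. The median log2 fold change of the 10 genes was -0.34, and that of the 7 genes other than SLC7A11, CHAC1 and SLC3A2 was -0.24, beside a median over all genes of 0.01 with quartiles of -0.29 and 0.40.

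**Figure D1:**
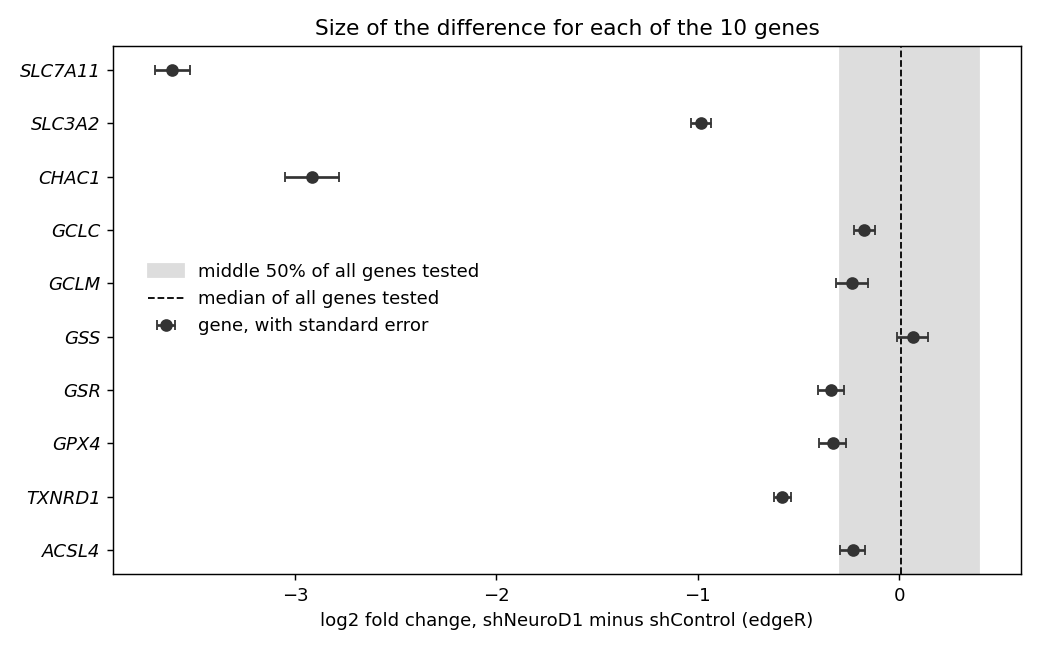
Log2 fold change of each of the 10 genes, shNeuroD1 minus shControl, with its standard error from the edgeR fit over 2 libraries per group; the grey band spans the middle 50% of the 17537 genes tested and the dashed line is their median. SLC7A11 (-3.61), CHAC1 (-2.92) and SLC3A2 (-0.99) lie farthest to the left, and GCLC, GCLM, ACSL4 and GSS lie inside the band.

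The DNA before the transcript starts of 7 of the 10 genes was searched on both strands for 4 short motifs, since several of the genes are known targets of ATF4 or NRF2. The motifs were TGATGNAA (the core that ATF4 reads with C/EBP proteins), TGACNNNGC (the antioxidant response element core read by NRF2), CAGATG (an E-box of the kind NEUROD1 reads) and CACGTG (the E-box read by MYC proteins). RefSeq windows of 250 bases (GRCh38.p14) were used, 12 in all for these 7 genes. SLC7A11, GSS and GSR were not searched, so the matches and absences below do not cover them. TGATGNAA was found in 1 of the 12 windows, that of CHAC1, beside 3.14% of all 35116 such windows. TGACNNNGC was found in 4 of the 12 windows, which belong to 3 genes, beside 10.9% of all windows. Neither CAGATG nor CACGTG was found in a window of the 7 genes, beside 12.2% and 6.34% of all windows. No 2 matches overlapped. The sites are shown because they are where the letters of the factors described further below occur in these genes. Each is given in the direction of its gene with the match in capitals. A match is a description of the letters, and no binding data were used here. The study mapped NeuroD1 binding in IMR-32 cells by ChIP sequencing, and that map was not examined.
SLC3A2, chr11:62881652-62881681, plus strand, 37 to 29 bases before a start: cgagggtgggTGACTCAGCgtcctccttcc
CHAC1, chr15:40953251-40953280, plus strand, 209 to 202 bases before the start, match on the opposite strand: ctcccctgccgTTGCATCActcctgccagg
GCLM, chr1:93909445-93909474, minus strand, 34 to 26 bases before the start, match on the opposite strand: tacgatttctGCTTAGTCAttgtcttccag
TXNRD1, chr12:104215670-104215699, plus strand, 99 to 91 bases before the upstream start: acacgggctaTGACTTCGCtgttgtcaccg
TXNRD1, chr12:104286920-104286949, plus strand, 102 to 94 bases before the downstream start, match on the opposite strand: gtggatttctGCTTTGTCAttctgactctg

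Of these 5 sites, 4 also overlapped an annotated exon of the same gene (GENCODE 29), and the upstream TXNRD1 site did not. The GCLM site did so only in part, since the gene is annotated up to 93909456. SLC3A2 had 3 windows and only that before the start at 62881699 held a match. The single CHAC1 match lay before the RefSeq start at 40953471. It lay inside the only CHAC1 start listed for these libraries (40952962-40953814, in a readout described below), not before it. The downstream TXNRD1 match likewise lay inside a listed start (104286682-104287109).

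SLC7A11, the transporter subunit of system xc-, showed the largest difference of the 10 genes. The gene lies on the minus strand of chromosome 4 at 138164097-138242349 (GRCh38), with 9645 annotated exon bases. Its raw counts were 1478 and 1817 under the control hairpin and 124 and 144 under the NEUROD1 hairpin, or 100.3 and 114.4 CPM against 8.15 and 9.46 CPM. Both knockdown libraries thus lay far below both controls. The controls differed from each other more than the knockdown libraries did in CPM, but not relative to their level. The means were 107.4 ± 10.005 CPM (SD, n = 2) and 8.80 ± 0.923 CPM (SD, n = 2), and the log2 fold change was -3.61 (SE 0.09). An antisense transcript, SLC7A11-AS1, shares 865 exon bases with the gene and had 12, 27, 1 and 6 counts in the same library order. These counts are small beside those of SLC7A11. Whether reads were counted by strand is not stated, and the counts do not show how many reads of the shared bases were affected.

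SLC3A2, the glycoprotein that carries SLC7A11 and several other amino acid transporters to the cell surface, differed less than its partner. It lies on the plus strand of chromosome 11 at 62856102-62888875. Its levels were 155.6 and 155.0 CPM in shControl and 78.2 and 78.7 CPM in shNeuroD1 (155.3 ± 0.373 against 78.4 ± 0.365, SD, n = 2), a log2 fold change of -0.99 (SE 0.05). The 4 values formed 2 tight pairs. Per exon kilobase and within a library, SLC7A11 stood at 0.346 and 0.396 of the SLC3A2 level with the control hairpin but at 0.0560 and 0.0645 of it with the NEUROD1 hairpin. The light chain was thus the scarcer of the 2 transcripts in every library.

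CHAC1, a gamma-glutamyl cyclotransferase that degrades glutathione and is known as a target of the ATF4 stress response, was low after knockdown as well. It lies on the plus strand of chromosome 15 at 40952962-40956519. It was counted 411 and 448 times in shControl but 53 and 60 times in shNeuroD1, and its levels were 27.9 and 28.2 CPM against 3.48 and 3.94 CPM. Each group was tight, at 28.0 ± 0.232 and 3.71 ± 0.323 CPM (SD, n = 2), and the log2 fold change was -2.92 (SE 0.13). Per exon kilobase CHAC1 was above GCLC in the shControl libraries (ratios of 1.14 and 1.16) and far below it in the shNeuroD1 libraries (0.161 and 0.182). The order in shControl rests on the annotated exon length, since at transcript starts (described below) CHAC1 stood at 13.2 and 11.7 FPKM and the stronger GCLC start at 12.2 and 16.2 FPKM in those libraries.

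**Figure D2:**
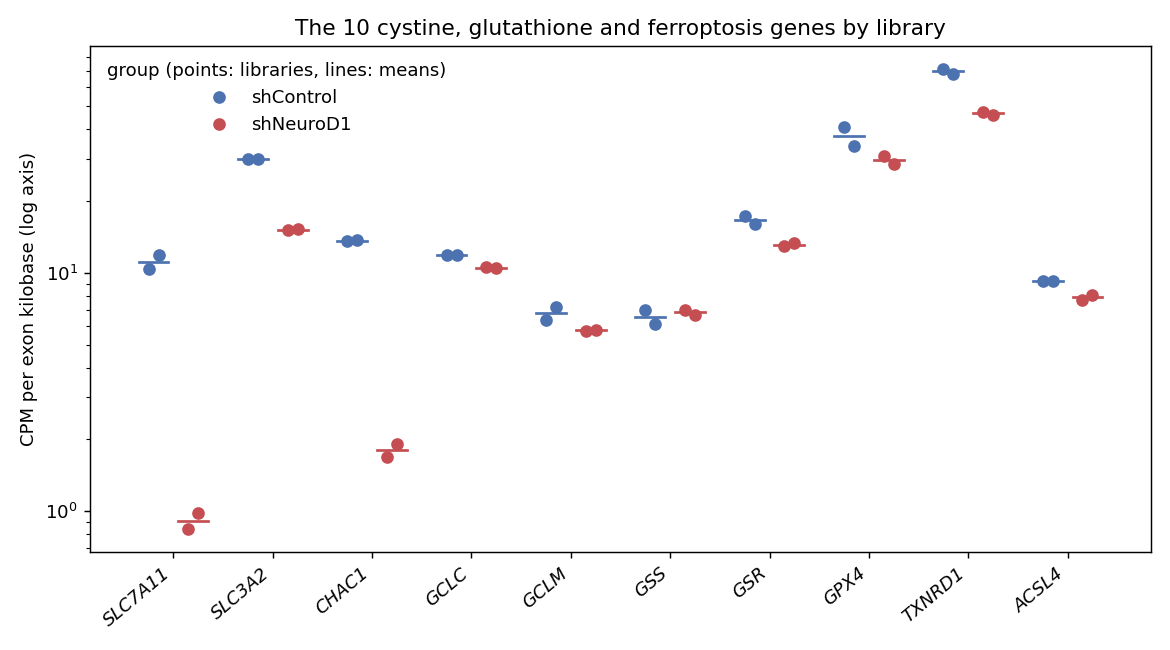
Level of each of the 10 genes in the 4 libraries, as CPM per kilobase of annotated exons on a log axis; points are libraries and lines are group means (n = 2). SLC7A11 goes from a mean of 11.1 to 0.913 and CHAC1 from 13.6 to 1.80, while the points of the 2 groups overlap only for GSS.

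The genes of glutathione synthesis stayed close to their control levels. GCLC, on the minus strand of chromosome 6 at 53497341-53616970, stood at 102.4 and 102.6 CPM in shControl and at 91.0 and 90.8 CPM in shNeuroD1 (log2 fold change -0.17, SE 0.05). GCLM, on the minus strand of chromosome 1 at 93885205-93909456, stood at 34.5 and 38.8 CPM against 31.0 and 31.3 CPM (-0.24, SE 0.08). The knockdown libraries were below the controls for both subunits, by a small margin. Without shControl replicate 2 the GCLM value was -0.16. The ratio of GCLC to GCLM per exon kilobase was 1.86 and 1.66 with the control hairpin and 1.84 and 1.82 with the NEUROD1 hairpin, so the proportions of the subunits overlapped between the groups. GSS, on the minus strand of chromosome 20 at 34928433-34956027, stood at 43.0 and 37.6 CPM in shControl and at 43.3 and 41.0 CPM in shNeuroD1. Its groups overlapped, its log2 fold change was 0.07 (SE 0.08), and without shControl replicate 2 the sign turned (-0.04). A same-strand non-coding gene, AL033397.1, shares 529 exon bases with GCLC and had 0 counts in every library.

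The reductases that recycle glutathione and thioredoxin were lower in both knockdown libraries. TXNRD1, a selenoprotein that reduces thioredoxin in the cytosol, lies on the plus strand of chromosome 12 at 104215779-104350305. It had the most counts of the 10 genes, with 7078 and 7265 in shControl but 4838 and 4706 in shNeuroD1. Its levels were 480.2 and 457.5 CPM against 318.0 and 309.1 CPM, with a log2 fold change of -0.58 (SE 0.04). A ribosomal pseudogene, RPL18AP3, lies in an intron of TXNRD1 with no shared exon and had 1454 to 1721 counts. GSR, which regenerates reduced glutathione from its disulfide, lies on the minus strand of chromosome 8 at 30678061-30727999. It stood at 64.8 and 60.4 CPM in shControl and at 48.6 and 50.2 CPM in shNeuroD1 (-0.34, SE 0.06), and the groups were apart by more than the spread within either.

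GPX4 and ACSL4 act on opposite sides of ferroptosis, the former removing lipid peroxides and the latter activating the polyunsaturated fatty acids from which they form. GPX4, on the plus strand of chromosome 19 at 1103926-1106791, stood at 82.4 and 69.0 CPM in shControl and at 62.5 and 57.7 CPM in shNeuroD1 (log2 fold change -0.33, SE 0.07). The controls lay farther from each other than the nearest control and knockdown library, and the value was -0.21 without shControl replicate 1 and -0.47 without shControl replicate 2. ACSL4, on the minus strand of chromosome X at 109624244-109733403, stood at 59.5 and 59.3 CPM in shControl and at 49.4 and 51.8 CPM in shNeuroD1 (-0.23, SE 0.06). The ratio of GPX4 to ACSL4 per exon kilobase was 4.40 and 3.70 with the control hairpin and 4.02 and 3.54 with the NEUROD1 hairpin. These ratios overlapped between the groups.

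Ranked by CPM per exon kilobase, the 10 genes stood in another order after knockdown. In shControl the means ran from TXNRD1 (69.9) through GPX4 (37.5), SLC3A2 (29.99), GSR (16.6), CHAC1 (13.6), GCLC (11.9), SLC7A11 (11.1), ACSL4 (9.26) and GCLM (6.76) to GSS (6.53). Neighbours whose libraries overlapped were GCLC with SLC7A11, and GCLM with GSS. In shNeuroD1 they ran from TXNRD1 (46.7) through GPX4 (29.8), SLC3A2 (15.1), GSR (13.1), GCLC (10.5), ACSL4 (7.89), GSS (6.83), GCLM (5.75) and CHAC1 (1.80) to SLC7A11 (0.913). CHAC1 and SLC7A11 thus moved to the end of the order, and the other genes kept theirs except for GSS and GCLM. The exon length is that of all annotated transcripts together, so a gene with many unused exons is placed too low.

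A further deposited readout, FPKM (fragments scaled to transcript length and depth) at transcript starts and ends, was described as well. It comes from the same libraries and is no independent measure. The SLC7A11 start was listed at 6.68 and 9.04 FPKM under shControl and at 0.894 and 0.659 FPKM under shNeuroD1. Its transcript end was listed at 6.68 and 9.04 in shControl and at 0.427 in shNeuroD1 replicate 2, and was not listed in shNeuroD1 replicate 1. CHAC1 had 1 start, with 13.2 and 11.7 FPKM against 1.61 and 1.63 FPKM, and an end with 11.9 and 11.0 FPKM against 1.65 and 1.80 FPKM. Both genes were therefore low at either end of the transcript.

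SLC3A2 had 8 starts, which summed to 45.0 and 40.2 FPKM in shControl and to 20.7 in each shNeuroD1 library. Within that sum the starts were divided differently between libraries of 1 group. The upstream start at 62856102-62856381 was listed at 34.5 and 36.1 FPKM in shControl and at 9.11 and 20.2 FPKM in shNeuroD1. The start at 62881699-62882066, which follows the site printed above, was listed at 10.2 and 0.0134 FPKM in shControl and at 11.1 and 0.0919 FPKM in shNeuroD1. Because replicates of a group differed by so much at this start, no use of 1 start over another was compared.

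For the other genes the summed start values of the groups were closer, and most overlapped. GCLM (4.48 and 4.27 against 4.68 and 4.08 FPKM), GSS (9.17 and 9.73 against 8.05 and 11.8 FPKM), GPX4 (47.8 and 39.5 against 37.5 and 42.5 FPKM) and ACSL4 (6.92 and 6.07 against 5.42 and 6.66 FPKM) overlapped between the groups. GSR did not overlap, with 15.6 and 14.9 FPKM in shControl and 12.2 and 12.6 FPKM in shNeuroD1. TXNRD1 stood at 150.1 and 104.8 FPKM against 93.2 and 101.2 FPKM, without overlap but with a wide gap between the controls. The 2 starts within GCLC are assigned in those files to AL033397.1. The stronger was listed at 12.2 and 16.2 FPKM in shControl and 13.5 and 15.7 FPKM in shNeuroD1, and the weaker at 0.379 to 0.641 FPKM over the 4 libraries. The small differences in the counts of GCLC, GCLM, GPX4 and ACSL4 were thus not seen as separate groups in this readout.

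**Figure D3:**
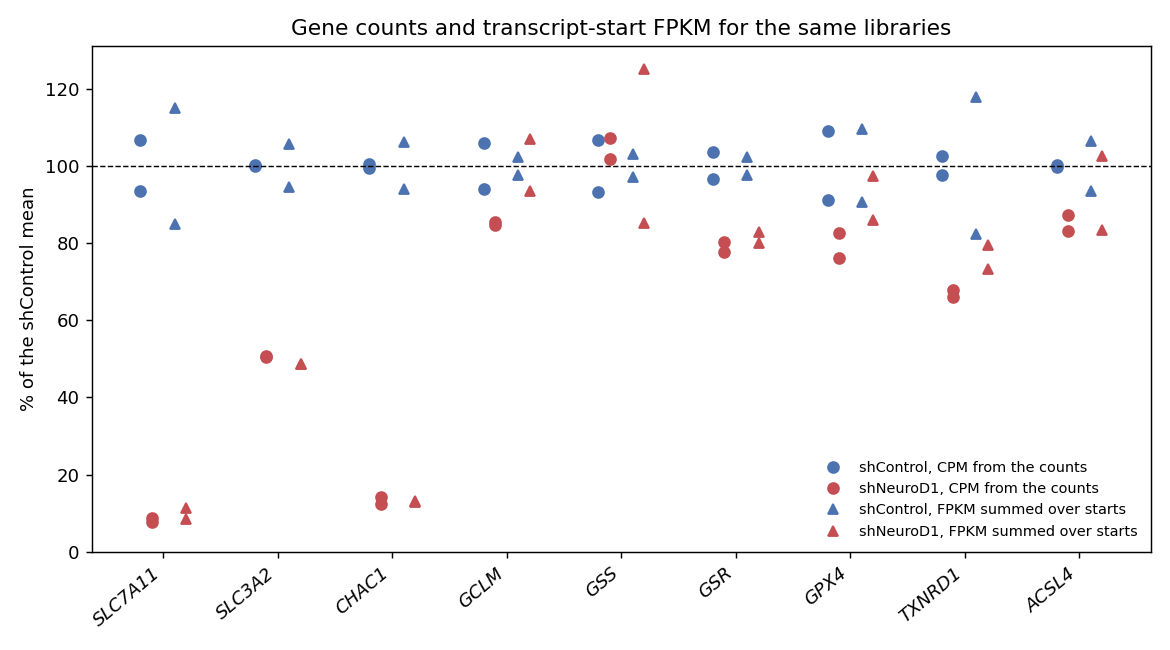
Levels of 9 of the 10 genes in each library as a percentage of the shControl mean, from the gene counts (circles, CPM) and from FPKM summed over transcript starts (triangles); blue is shControl and red is shNeuroD1 (n = 2 each). SLC7A11, CHAC1 and SLC3A2 are far below 100% in both readouts, whereas the triangles of GCLM, GSS, GPX4 and ACSL4 overlap between the groups; GCLC is left out because its starts are assigned to another gene.

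The genes that pair with SLC3A2 or are known to regulate SLC7A11 were examined next. The lists were drawn up from textbook knowledge, with earlier results of these data known. SLC7A5, the large neutral amino acid transporter that shares the heavy chain, fell from 208.1 ± 10.4 to 107.1 ± 0.903 CPM (SD, n = 2), a log2 fold change of -0.96 (SE 0.05, adjusted p = 2.5e-17), which was close to that of SLC3A2. SLC7A6, another light chain, stood at 49.9 ± 1.30 and 51.1 ± 1.47 CPM with overlapping groups (0.03, adjusted p = 0.69). The light chains SLC7A7, SLC7A8 and SLC7A10 had at most 10 counts in any library and were not tested. SLC7A6 shares 3371 exon bases with the opposite-strand gene SLC7A6OS, so its count is uncertain.

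Of the 13 regulators of SLC7A11, all tested, 9 were lower at an adjusted p under 0.05 (69.2%, beside 28.2% of all genes). Only 1 was higher (7.69%, beside 26.8%), and the median log2 fold change was -0.19. Of the 9 lower calls, 5 were small and did not hold in DESeq2, as given below. With a library left out, 4 to 6 were lower. ATF4, the transcription factor that induces amino acid transport and CHAC1 under amino acid shortage, had 514.0 and 490.0 CPM in shControl and 238.0 and 237.6 CPM in shNeuroD1, a fall of 1.08 on the log2 scale (SE 0.04, adjusted p = 3.2e-20). In the FPKM readout, however, the ATF4 starts summed to 80.8 and 46.2 in shControl and to 84.9 and 74.4 in shNeuroD1, so the direction there was the opposite and the groups overlapped. The cause of this difference between the files was not tested. NFE2L2, which encodes NRF2, the main activator of antioxidant genes including SLC7A11, GCLC, GCLM and TXNRD1, had 165.3 and 158.4 CPM against 71.9 and 73.5 CPM (-1.15, adjusted p = 8.8e-19). NFE2L2 shares 1054 exon bases with AC019080.1 on the same strand, which had 107, 98, 163 and 151 counts, small beside the NFE2L2 counts. How many reads of these shared bases were affected is not known. ATF3, a stress-induced repressor and activator of the same family as ATF4, fell from 21.3 ± 0.217 to 7.26 ± 0.516 CPM (SD, n = 2; -1.55, adjusted p = 2.4e-12). Both knockdown libraries lay below both controls for each of these 3 genes in the counts.

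CD44, a surface protein that stabilises SLC7A11, was the regulator that rose, from 9.01 ± 0.265 to 19.0 ± 2.36 CPM (1.07, adjusted p = 1.2e-08). In the counts ATF4 and NFE2L2, which activate SLC7A11, were therefore lower, ATF3 was lower as well, and CD44 was higher.

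The other regulators named here differed little. DDIT3 (-0.40, adjusted p = 0.047), TRIB3 (-0.33, adjusted p = 0.020), KEAP1 (-0.15, adjusted p = 0.027), BACH1 (-0.19, adjusted p = 0.0067) and BAP1 (-0.13, adjusted p = 0.034) were below the threshold in the edgeR fit. None of these 5 calls held in DESeq2's Wald test, where the adjusted p ranged from 0.0885 for BACH1 to 0.305 for DDIT3, or when shControl replicate 1 or 2 was left out (0.0506 to 0.19). DDIT3 also shares 355 exon bases with the opposite-strand gene MARS, whose 3203 to 6848 counts are far above its own 79 to 117. NFE2L1 (0.05, adjusted p = 0.30), MAFG (-0.09, adjusted p = 0.14) and OTUB1 (-0.02, adjusted p = 0.78) did not pass.

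**Figure D4:**
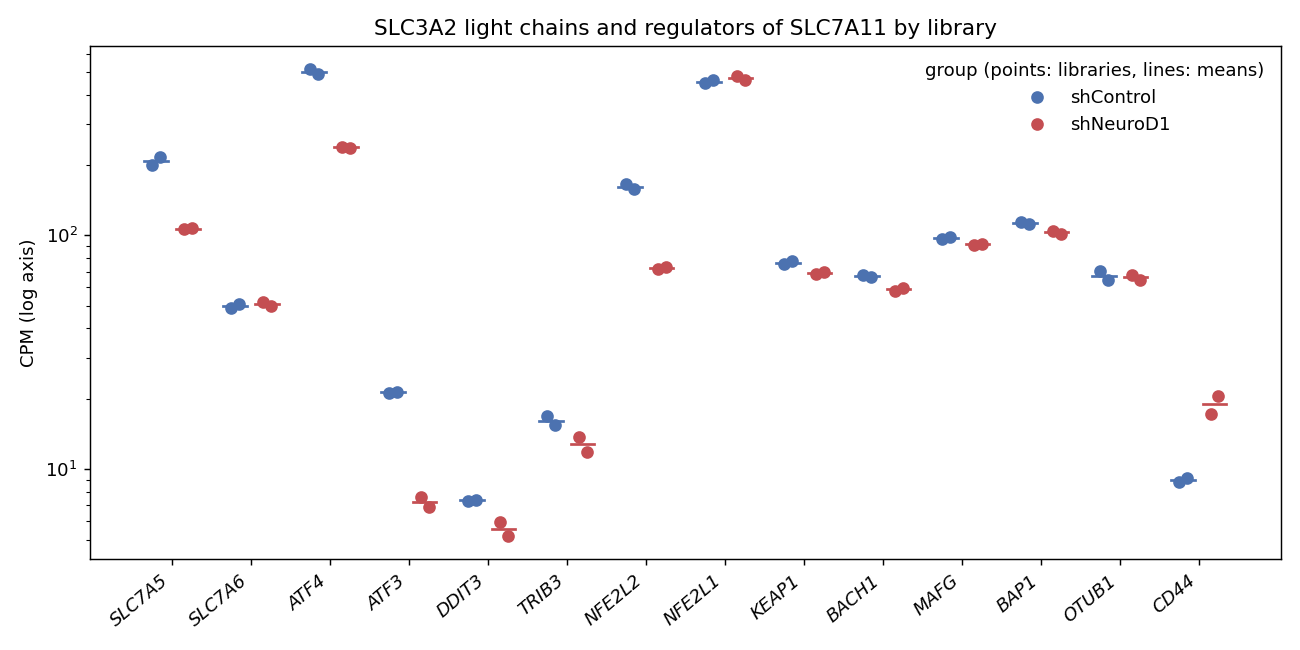
Levels of the SLC3A2 light chains and regulators of SLC7A11 named in the text in the 4 libraries, as CPM on a log axis; points are libraries and lines are group means (n = 2), and each gene is to be compared only with itself. SLC7A5, ATF4, ATF3 and NFE2L2 are lower in both shNeuroD1 libraries, CD44 is higher, and SLC7A6, NFE2L1, MAFG and OTUB1 differ little.

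Across 12 lists of genes around cystine, glutathione and ferroptosis, 158 of 180 genes were tested, of which 65 (41.1%) were lower and 35 (22.2%) were higher at an adjusted p under 0.05, beside 28.2% and 26.8% of all genes. The median log2 fold change over the lists was -0.12, beside 0.01 over all genes. Past a log2 fold change of 1 as well, 10 were lower and 4 were higher, beside 5.14% and 8.79% of all genes. Without shControl replicate 1 the lower count was 41, and without shControl replicate 2 the higher count was 21. With a library left out, the counts also shrank by list, to 0 to 1 higher gene of transsulfuration, 1 to 2 higher genes of glutathione breakdown, 0 to 2 lower and 4 to 6 higher glutathione S-transferases, 3 to 4 lower peroxidases, 2 to 4 lower and 1 to 3 higher thioredoxin and glutaredoxin genes, 6 to 8 lower and 3 to 6 higher genes of peroxidation-prone lipids, 4 to 6 lower and 1 to 4 higher genes of GPX4-independent defence, 2 to 4 lower iron genes, and 0 to 1 selenium genes in either direction. No list was tested as a set.

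In the list of the methionine cycle and transsulfuration, 7 of the 11 tested genes were lower (63.6%, beside 28.2% of all genes). Higher levels were found for 1 (9.09%, beside 26.8%), with a median of -0.21. Not all genes of the list make cysteine. CTH, which releases cysteine from cystathionine, had 34.4 and 31.9 CPM in shControl and 6.77 and 9.46 CPM in shNeuroD1, a fall of 2.03 on the log2 scale (SE 0.12, adjusted p = 8.6e-16). CBS, the enzyme before it, fell from 24.0 ± 0.446 to 14.9 ± 1.99 CPM (-0.69, adjusted p = 1.6e-06). In the FPKM readout the CBS groups overlapped, with 23.63 and 14.43 in shControl and 14.39 and 15.8 in shNeuroD1. CDO1, which oxidises cysteine and so removes it, fell from 11.6 ± 0.565 to 6.64 ± 0.553 CPM (-0.81, adjusted p = 2.5e-05). The 3 genes named here, all lower, thus act in making cysteine (CTH, CBS) as well as in removing it (CDO1).

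In glutathione breakdown, 4 of the 9 tested genes were lower (44.4%) and 2 were higher (22.2%), beside 28.2% and 26.8% of all genes (median -0.47). CHAC2, a paralogue of CHAC1, fell from 34.4 ± 1.12 to 17.8 ± 1.06 CPM (-0.94, adjusted p = 1.2e-10), a smaller difference than that of CHAC1. GGCT, which acts on the gamma-glutamyl amino acids released from glutathione, fell from 94.9 ± 11.4 to 62.1 ± 3.76 CPM (-0.61, adjusted p = 2.1e-09), while GGT7, of the gamma-glutamyltransferase family, rose from 58.4 ± 2.20 to 96.2 ± 4.16 CPM (0.72, adjusted p = 2.8e-12). GGT5 also passed a log2 fold change of 1, but with only 14, 17, 0 and 5 counts.

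Among the glutathione S-transferases, 6 of the 13 tested genes were higher (46.2%, beside 26.8% of all genes), 2 were lower and 5 did not pass (median 0.18). GSTO2 rose from 6.24 and 5.42 CPM to 17.6 and 17.5 CPM (1.59, adjusted p = 1.7e-11), whereas its neighbour in the family, GSTO1, fell from 54.3 ± 4.80 to 35.9 ± 5.83 CPM (-0.59, adjusted p = 2.8e-07, but 0.0785 without shControl replicate 1). GSTM2 rose from 31.1 ± 2.89 to 54.1 ± 0.316 CPM (0.80, adjusted p = 6.2e-11), but it shares 559 exon bases with GSTM1 and is closely similar to it, so the division of reads between them is uncertain.

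Among the peroxidases other than GPX4, 6 of the 10 tested genes were lower (60%, beside 28.2% of all genes). Only 1 was higher (10%, beside 26.8%), and the median was -0.12. PRDX6, a peroxiredoxin that reduces phospholipid hydroperoxides, fell from 183.2 ± 1.75 to 102.7 ± 1.93 CPM (-0.84, adjusted p = 5.4e-16). PRDX4, the peroxiredoxin of the endoplasmic reticulum, rose from 54.97 ± 3.73 to 93.0 ± 1.78 CPM (0.76, adjusted p = 1.4e-12). GPX3 had few counts (78 to 116) and its call (-0.42, adjusted p = 0.039) was lost in DESeq2 (adjusted p = 0.279) and without shControl replicate 1, shControl replicate 2 or shNeuroD1 replicate 2 (0.119 to 0.234). GPX8, a peroxidase of the endoplasmic reticulum that lay below the expression limit for naming and was picked after its values were seen, was counted 90 and 105 times in shControl but 12 and 12 times in shNeuroD1 (-3.00, adjusted p = 6.3e-11).

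Of 15 thioredoxin and glutaredoxin genes tested, 4 were lower (26.7%, beside 28.2% of all genes) and 3 were higher (20%, beside 26.8%) (median -0.13). TXNRD3 was at 7.42 ± 0.160 and 10.8 ± 0.318 CPM (0.54, adjusted p = 0.0020, but 0.0885 in DESeq2 and 0.0524 without shControl replicate 2). MSRB2, a mitochondrial methionine sulfoxide reductase, was at 7.15 ± 0.0534 and 12.4 ± 1.77 CPM (0.79, adjusted p = 3.2e-05), and its call was lost without shControl replicate 1 (0.0527) or 2 (0.0558).

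Of the NRF2 targets and genes of NADPH supply, 8 of 18 tested were lower (44.4%, beside 28.2% of all genes). Higher levels were found for 4 (22.2%, beside 26.8%), and the median was -0.20. MTHFD2, a mitochondrial folate enzyme that also belongs to the ATF4 targets, had 690.9 and 669.3 CPM in shControl and 255.9 and 255.9 CPM in shNeuroD1 (-1.41, adjusted p = 1.5e-23). NQO1, the NRF2 target used most often as its readout and named here after its values were seen, fell from 19.4 to 13.5 CPM on average (-0.52, adjusted p = 0.00023). AKR1C1 (4.57 ± 0.221 to 8.18 ± 0.227 CPM, 0.84, adjusted p = 0.00014) and EPHX1 (12.3 ± 1.57 to 20.6 ± 0.636 CPM, 0.75, adjusted p = 1.4e-06) rose, so genes counted as NRF2 targets did not move 1 way. AKR1C1 is nearly identical in sequence to other AKR1C genes, and its counts are uncertain for that reason.

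Of 21 genes tested that supply or remodel the lipids prone to peroxidation, 10 were lower (47.6%) and 6 were higher (28.6%, beside 26.8% of all genes), with a median of -0.11. FADS1, the fatty acid desaturase of arachidonic acid synthesis, fell from 315.9 ± 1.49 to 227.4 ± 6.98 CPM (-0.47, adjusted p = 3.9e-11). POR, the electron donor of cytochrome P450 that can start lipid peroxidation, rose from 26.03 ± 1.19 to 43.3 ± 2.34 CPM (0.74, adjusted p = 1.7e-09). PLA2G6 was at 8.46 ± 0.0627 and 11.8 ± 0.101 CPM (0.48, adjusted p = 0.0035, but 0.115 in DESeq2 and 0.0528 or 0.0514 without shControl replicate 1 or 2). Below the expression limit for naming, and picked after their values were seen, MBOAT1 fell from 99 and 103 counts to 42 and 24 (-1.60), ACSL6 rose from 19 and 31 counts to 112 and 101 (2.10), and ALOXE3 had 0, 3, 17 and 10 counts.

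In the defences that work without GPX4, 6 of the 18 tested genes were lower (33.3%, beside 28.2% of all genes). Higher levels were found for 4 (22.2%, beside 26.8%), and the median was 0.05. These 4, named after their values were seen, were EBP (0.60), SPR (0.51), COQ4 (0.25) and VKORC1L1 (0.235). VKORC1, a vitamin K reductase, fell from 12.2 ± 0.233 to 5.62 ± 0.879 CPM (-1.12, adjusted p = 2.0e-07). AIFM2, which encodes the ferroptosis suppressor FSP1 and was named after its values were seen, was at only 1.43 and 2.20 CPM on average and did not pass (0.61, adjusted p = 0.12).

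No iron or selenium gene passed a log2 fold change of 1. Of 18 iron genes tested, 7 were lower (38.9%) and 5 were higher (27.8%), beside 28.2% and 26.8% of all genes (median -0.11). HSPB1, a heat shock protein reported to limit iron uptake, rose from 94.5 ± 5.71 to 129.1 ± 0.227 CPM (0.45, adjusted p = 7.7e-09). STEAP3, an iron reductase of the endosome, was at 8.96 ± 0.564 and 13.6 ± 1.08 CPM (0.61, adjusted p = 0.00029, but 0.058 without shControl replicate 2), and SLC39A8, a zinc and iron importer, at 15.1 ± 3.34 and 10.5 ± 0.690 CPM (-0.53, adjusted p = 0.0019, but 0.144 without shControl replicate 1). Of 11 selenium genes tested, 2 were lower and 2 were higher (18.2% each, median 0.06). TRNAU1AP (-0.52, adjusted p = 0.0047), EEFSEC (0.41, adjusted p = 0.0092) and SEPHS1 (-0.20, adjusted p = 0.0020), which act in selenocysteine synthesis and insertion, each lost the call without shControl replicate 1 (adjusted p of 0.0635, 0.0536 and 0.0905) and without shControl replicate 2 (0.0715, 0.257 and 0.202).

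**Figure D5:**
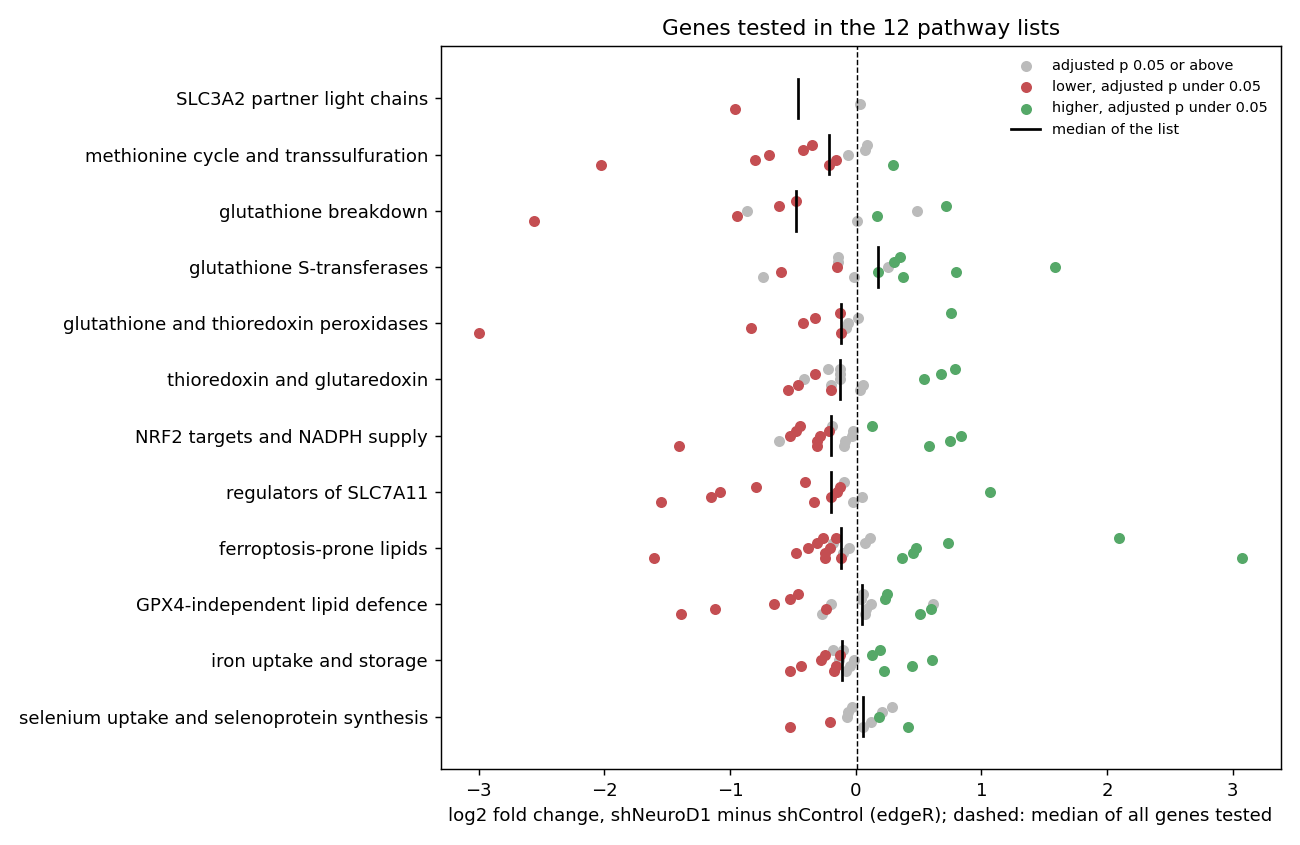
Log2 fold change of each gene tested in the 12 pathway lists, shNeuroD1 minus shControl; red and green points had an adjusted p under 0.05, grey points did not, black bars are list medians and the dashed line is the median of all genes tested. Most lists hold both red and green points, with medians between -0.47 and 0.18, and 14 genes lie beyond 1 in size with an adjusted p under 0.05.

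Genes whose pattern over the 4 libraries was most like that of SLC7A11 or CHAC1 were then named from 10560 genes (mean of 10 CPM or more), by the distance between centred log2 CPM values. The genes nearest to SLC7A11 were SSTR2, a somatostatin receptor (distance 0.22), LY86-AS1 (0.25), BHLHE22, a basic helix-loop-helix factor (0.29), PARM1 (0.32) and GFRA1, a receptor of GDNF (0.46). SSTR2 went from a mean of 598.5 to 47.4 CPM, with a log2 fold change of -3.66. The genes nearest to CHAC1 were PLSCR5 (0.04), VGLL3 (0.21), IGFBP5 (0.23), NEUROD1 (0.24) and ESRRG (0.24). With 4 libraries in 2 groups, the distance mostly follows the size of the difference, and it is given as a description.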

How the data were processed

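RNA sequencing of 4 IMR-32 libraries (2 shControl, 2 shNeuroD1) was analysed from the deposited gene counts, which the authors made with HTSeq and which are raw and unnormalised, and from the deposited FPKM values at transcript starts and ends, whose tool is not given in the sources used here. The submitters' processing notes name cutadapt 1.9.1, HISAT2 2.0.1, HTSeq 0.6.1, DESeq2 and hg38. The strand setting and annotation release of the counting are not given in the sources used here. Rows without a gene held 0% of counts, and 60401 of 60612 identifiers had a symbol. Exon lengths, positions and overlaps came from GENCODE 29 (GRCh38), which held 58394 of the identifiers, and promoter windows from RefSeq (GRCh38.p14).

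Counts were fitted with edgeR 4.0.16 (R 4.3.3) under a quasi-likelihood model with TMM scaling after filterByExpr (minimum count 10), which left 17537 genes. Tests were two-sided and p-values were adjusted by Benjamini and Hochberg's method over these genes. CPM values are TMM-scaled, CPM per exon kilobase divides them by the annotated exon length, and SDs are over 2 libraries. A gene passed at an adjusted p under 0.05, and, where said, with a log2 fold change beyond 1 in size, a limit the study also applied when plotting its changed genes. Replicate pairs differed by more than sampling noise (chi-square per degree of freedom 2.53 in shControl and 1.56 in shNeuroD1), so each library was counted once. The scripts were tested on simulated data.

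The 10 genes and all lists were chosen with earlier results of these data known. Named genes were NEUROD1, the 10 genes, every SLC3A2 light chain and SLC7A11 regulator, the 3 genes with the largest passing change and a mean of at least 5 CPM from each other list, and the 5 genes nearest to SLC7A11 and to CHAC1. A few genes that this rule takes are not reported here, and others are marked as picked afterwards. Alternatives were DESeq2 1.42.0, its size factors, library size alone, other filters, a replicate block, leaving out each library, and limma 3.58.1 on log2(FPKM + 1) and log2(FPKM + 0.1) of 10083 genes (mean of 1 FPKM or more).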

Additional observations from a re-analysis of the deposited data

How the results depend on the processing

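Over all genes, DESeq2 passed 2757 genes as higher in place of 4698, and limma on log2(FPKM + 1) and log2(FPKM + 0.1) passed 278 and 257 as lower and 247 and 206 as higher. With a log2 fold change beyond 1 required, 902 were lower and 1541 higher. Leaving out each library in turn gave 3464 to 4213 lower and 2828 to 3860 higher genes, the higher count being 2855 without shControl replicate 1 and 2828 without shControl replicate 2. Of the 10 genes, 6 passed as lower in DESeq2 and 6 with library size alone, in place of 9. In either FPKM fit, where GCLC was not fitted, 3 passed as lower, and 2 passed both thresholds in the counts. Scaling by library size alone moved the median of all genes to 0.12 and that of the 10 genes to -0.22, where 1 gene passed as higher. Relative to that median, SLC7A11 stood at -3.62 and GSS at 0.06. The median of the 10 genes ranged from -0.43 (without shControl replicate 2) to -0.31 with a library left out.

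In the pathway lists, library size alone passed 42 genes as lower, each FPKM fit passed 5 (CTH, FADS2, MTHFD2, PRDX6 and SLC7A5), and both thresholds left 10. As higher, the FPKM fits passed 2 (EPHX1 and TFRC) and 1 (TFRC), and both thresholds left 4. Leaving out each library gave 41 to 50 lower and 21 to 32 higher. The other calls in the lists did not hold with FPKM, or the gene was not among the 126 list genes fitted there. Directions turned in the FPKM fits (+ 1 and + 0.1) for SLC7A6 (-0.0934 and -0.0996), ATF4 (0.37 and 0.38), NFE2L1 (-0.0052 and -0.0057), BACH1 (0.15 and 0.17) and MAFG (0.11 and 0.12), with library size alone for MAFG (0.0204) and OTUB1 (0.0898), and with a library left out for SLC7A6 (range -0.0031 to 0.062) and OTUB1 (range -0.0989 to 0.0335). The causes were not tested. Apart from the 10 genes, 393 of 522 values for named genes changed neither direction nor side of the threshold. For the 10 genes, 40 of 118 log2 fold changes moved by at least the gene's own SD between replicates.

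The libraries of the groups share replicate numbers, but the deviations of libraries with the same number were nearly unrelated (0.016 across genes, 2 pairs), so the numbers were not taken as a pairing. In a fit with the replicate block, 5000 lower and 4748 higher genes passed, 66 and 36 of them in the lists, and SLC7A11 stood at -3.61. Counting depth limits genes under about 100 counts a library most, and n = 2 limits all small differences.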
